A study of Daphnia magna with 9 samples.

Results

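The subject here is a set of 3 genes of Daphnia magna that belong to the SLC13 family of citrate and dicarboxylate transporters: INDY (Dapma7bEVm010715t1, named solute carrier family 13 member 5), a gene named solute carrier family 13 member 4 (Dapma7bEVm010407t1) and a gene named I'M NOT DEAD yet protein (Dapma7bEVm009510t1). They were chosen by their gene IDs from among genes that earlier results on these same libraries showed to be higher in the starved mutant. Their differences are therefore described with their standard error (SE) and were not tested. Among 42462 gene IDs, 9 have SLC13 names, so the 3 genes stand beside 6 others of their family. Each of the 3 has 1 feature (a row of the table), and all 3 passed the filter on low counts.

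RNA of whole bodies was sequenced from 9 libraries of female D. magna, a parthenogenetic water flea, with 5 daphnids aged 12 days pooled per library and their eggs removed. The groups had 3 libraries each. They were starved wild type (NIES strain, given 8-fold less Chlorella than in the nutrient-rich condition), starved DNMT3.1 mutant, and nutrient-rich DNMT3.1 mutant, hereafter the fed mutant. The mutant was a single line, descended from 1 founder, in which CRISPR/Cas had left frameshift indels with premature stop codons on both alleles of DNMT3.1, a DNA methyltransferase 3 family gene whose catalytic domain lacks most of its motifs. Nutrient-rich wild type was not analysed here, so the effect of food could be followed in the mutant only.

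SLC13 proteins sit in the cell membrane and carry anions into the cell, in mammals together with sodium ions. Some of the family carry citrate, succinate and related intermediates of the TCA cycle, and others carry sulfate. SLC13A5 is the citrate transporter of the mammalian liver and brain, and citrate that enters the cytosol can be split to acetyl-CoA for fatty acid and sterol synthesis. In Drosophila the family member I'm not dead yet, the gene from which INDY takes its name, is found in the midgut, fat body and oenocytes, and its reduction has been linked to a longer life.

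The libraries held 9270993 to 11806614 counted reads. DNMT3.1 (Dapma7bEVm006722t1) transcripts were counted in every library, at 79.2 to 111.4 CPM in the wild-type libraries (all starved), 40.0 to 87.6 CPM in starved mutants and 4.40 to 10.8 CPM in the fed mutant, where CPM is the library-scaled read count after TMM normalization. A frameshift need not lower the transcript, so this level does not check the genotype. Fed mutant replicate 2 stood apart: its TMM factor was 0.749 against 0.928 in both other libraries of the group, its germ line and ovary markers summed to 3690 CPM against 1360 and 1420 CPM, and it was the lowest of its group in 46.4% of tested features. Among the 546 features called higher in starved mutants than in wild type, starved mutant replicate 1 was the lowest of its group in 90.8% and replicate 2 the highest in 88.1%.

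INDY was nearly silent in the starved wild type and was the most abundant SLC13 transcript in the starved mutant. Its level was 1.23, 1.90 and 1.14 CPM in starved wild-type replicates 1 to 3, from 12, 19 and 12 reads. In starved mutant replicates 1 to 3 it was 35.9, 83.8 and 56.4 CPM, from 383, 1089 and 653 reads. Fed mutant replicates 1 to 3 had 13.3, 4.02 and 11.7 CPM, from 134, 32 and 111 reads. The 3 groups did not overlap at any point, and the fed mutant lay between the others. On the log2 scale the starved mutant was 5.36 above the starved wild type (SE 0.54), which is 41.0-fold. It was 2.59 above the fed mutant (SE 0.45), or 6.03-fold, and the starved wild type lay below the fed mutant with a log2 change of -2.77 (SE 0.52). Each starved mutant library thus lay above each fed one, while each wild-type library lay below them. In the last of these differences the line and the food cannot be told apart.

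The gene named solute carrier family 13 member 4 (Dapma7bEVm010407t1) was higher in the starved mutant and near the same level in both other groups. Starved wild-type replicates 1 to 3 had 6.23, 4.10 and 5.61 CPM. Starved mutant replicates 1 to 3 had 15.9, 22.2 and 20.9 CPM, and fed mutant replicates 1 to 3 had 6.35, 4.02 and 4.74 CPM. Every starved mutant library lay above all 6 others, whereas the starved wild type and the fed mutant overlapped. Its log2 fold change in the starved mutant was 1.89 against the starved wild type (SE 0.25) and 1.96 against the fed mutant (SE 0.25), 3.70-fold and 3.89-fold. Between the starved wild type and the fed mutant the log2 change was 0.07 (SE 0.25), within the spread of the libraries. In mammals SLC13A4 is known as a sodium-coupled sulfate transporter, so the name alone does not say which anion this D. magna protein carries.

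The gene Dapma7bEVm009510t1, named after the Drosophila I'm not dead yet protein, was the scarcest of the 3 in the starved mutant and the fed mutant by RPKM, and its lowest group was the fed one. Its level was 1.53, 1.40 and 1.90 CPM in starved wild-type replicates 1 to 3, from 15, 14 and 20 reads. Starved mutant replicates 1 to 3 had 3.38, 4.31 and 5.35 CPM, from 36, 56 and 62 reads. Fed mutant replicates 1 to 3 had 0.496, 0.251 and 0.526 CPM, which rest on 5, 2 and 5 reads. The groups did not overlap, and both starved groups lay above the fed one. The log2 change was 1.42 between the starved groups, with the mutant higher (SE 0.32), 3.30 between the starved and the fed mutant (SE 0.37), and 1.87 between the starved wild type and the fed mutant (SE 0.38).

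**Figure D1:**
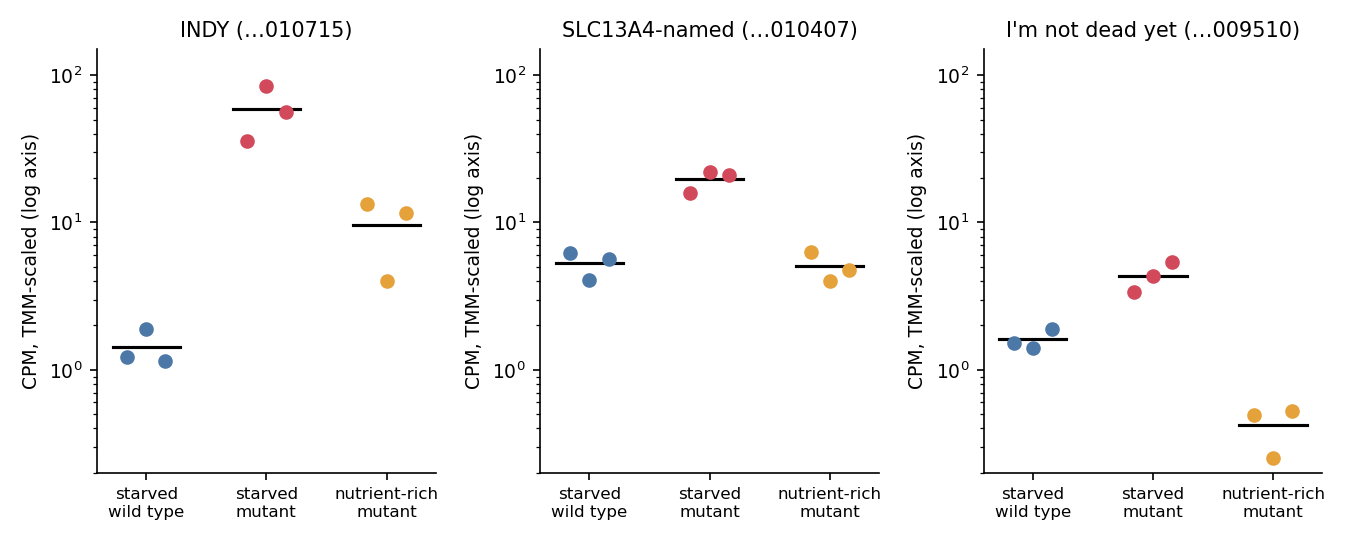
Level of the 3 genes in each library, in CPM after TMM scaling on a log axis. Points are libraries in replicate order (3 per group) and black bars are group means. The starved mutant is the highest group for all 3 genes, but the order of the other groups differs: for INDY the starved wild type is lowest (1.14 to 1.90 CPM), for Dapma7bEVm009510t1 the nutrient-rich mutant is lowest (0.251 to 0.526 CPM), and for Dapma7bEVm010407t1 these groups overlap.

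The 3 genes thus shared their highest group and differed in the order of the other groups. Their selection fixed that the starved mutant lay above the starved wild type. Its place above the fed mutant rests on the same starved mutant libraries. Between the starved groups all 3 had libraries that did not overlap, as did 20.1% of the 18675 tested features in the same direction. Because the selection used that contrast, the count carries no weight. Against the fed mutant, which shares the starved mutant libraries with it, the groups also lay apart for all 3, against 20.0% of features in that direction. Between the starved wild type and the fed mutant Dapma7bEVm009510t1 had separate groups with the starved wild type higher (20.7% of features did) and INDY had separate groups with the starved wild type lower (18.8% did). Ranked by log2 fold change among all tested features, INDY stood in place 69 from the top in the starved comparison, Dapma7bEVm010407t1 in place 401 and Dapma7bEVm009510t1 in place 590. High places there follow from the selection and carry no weight either. For starved against fed mutant the places were 442, 752 and 261 in the same order. In the starved wild type against the fed mutant INDY held place 118 from the bottom. There Dapma7bEVm009510t1 held place 548 from the top and Dapma7bEVm010407t1 place 8396. The starved wild-type libraries of this comparison also entered the selection, which favours low values in them. The low place and the separate groups of INDY there thus carry no weight either.

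The spread within groups also differed between the genes. INDY varied most: its SD was 40.9% of the mean in the starved mutant and 51.3% in the fed mutant, against 29.2% in the starved wild type. For Dapma7bEVm010407t1 the SD was 16.7% to 23.7% of the mean over the groups, and for Dapma7bEVm009510t1 16.2% to 35.5%. Starved mutant replicate 1 was the lowest library of its group for all 3 genes, the position it also held for most features called higher in that group. Fed mutant replicate 2 was likewise the lowest of its group for all 3. Without that replicate the log2 change of INDY between the starved and the fed mutant was 2.23, and leaving out each other library in turn gave up to 2.88. The difference of INDY between the starved groups stayed within 5.01 and 5.62 when any 1 library was left out.

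Levels of different genes were set side by side in RPKM, the deposited value, which is scaled to gene length and library size. In the starved wild type INDY was the scarcest of the 10 SLC13 features, at 0.647 ± 0.201 RPKM (SD, n = 3), and held the last place in each of the 3 libraries. The gene Dapma7bEVm000883t1, also named I'M NOT DEAD yet protein, was the most abundant there at 12.7 ± 0.421 RPKM. In the starved mutant the order was turned: INDY held the first place in each library, at 28.8 ± 11.5 RPKM. Dapma7bEVm010407t1 followed at 9.85 ± 1.60 RPKM and Dapma7bEVm000883t1 at 8.60 ± 2.26 RPKM, and these neighbours did not differ beyond their spread. In the fed mutant INDY was in the third place in every library, at 3.63 ± 2.06 RPKM, behind Dapma7bEVm000883t1 at 10.4 ± 4.85 RPKM and Dapma7bEVm010820t1 at 5.25 ± 2.57 RPKM, both of which had libraries that overlapped those of INDY. Dapma7bEVm010407t1 held the places 5, 2 and 4 by group mean in the starved wild type, starved mutant and fed mutant, and Dapma7bEVm009510t1 the places 8, 5 and 9.

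**Figure D2:**
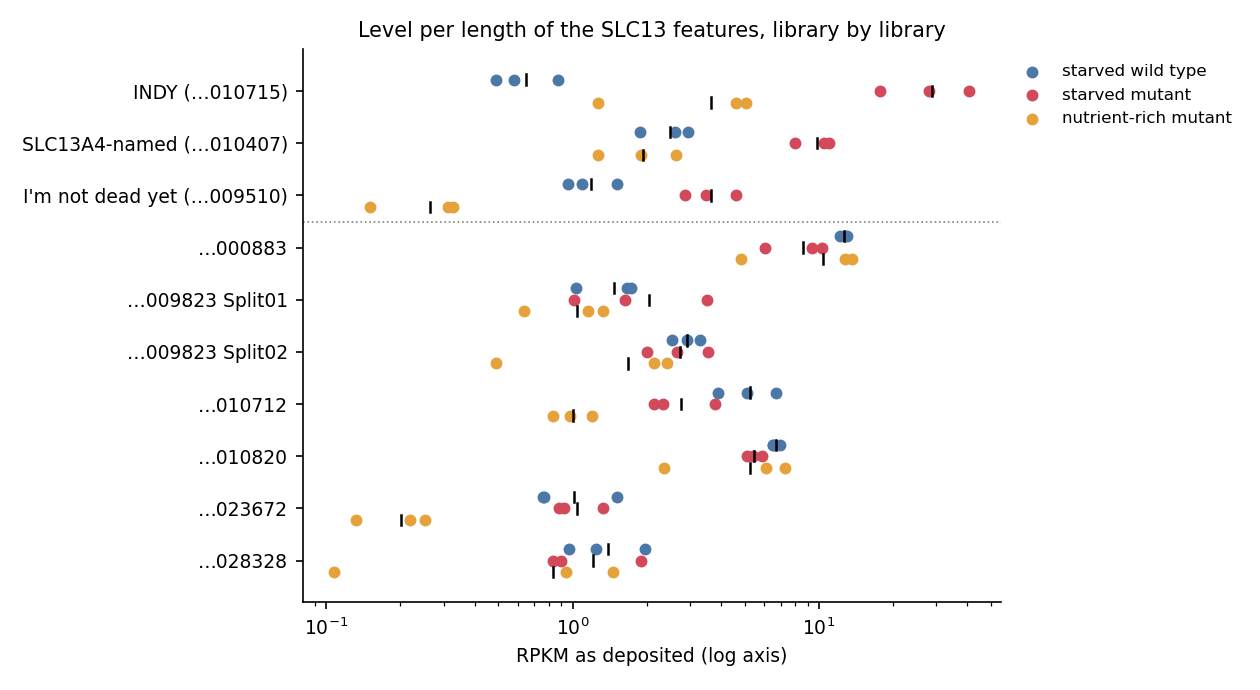
RPKM as deposited of the 10 SLC13 features (9 genes, with Dapma7bEVm009823t1 in 2 features) on a log axis. Each point is a library (3 per group, coloured by group), short black bars are group means, and the dotted line divides the 3 genes described here from the rest. INDY spans from 0.489 RPKM in a starved wild-type library to 40.8 RPKM in a starved mutant library.

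The share of INDY in the summed RPKM of the family followed. It was 1.58%, 2.39% and 1.44% in starved wild-type replicates 1 to 3, then 33.2%, 53.7% and 40.5% in starved mutants, and 14.8%, 10.3% and 14.2% in the fed mutant. Dapma7bEVm010407t1 held 5.15% to 8.03% in wild type, 14.5% to 15.2% in starved mutants and 5.89% to 10.3% in the fed mutant. The share of Dapma7bEVm009510t1 lay between 2.62% and 4.45%, 4.57% and 6.67%, and 0.914% and 1.22% in the same groups. The summed RPKM of all 10 features was 34.0 to 36.6 in wild-type libraries and 53.5 to 75.9 in starved mutants, so the family total was higher in each starved mutant library. Summed CPM after TMM scaling was 73.2 to 81.2 and 107 to 156 in the same groups. The 7 features outside the 3 genes, which are what the selection by the same contrast left of the family, summed to 29.3 to 32.8 RPKM in wild-type libraries and to 20.7 to 26.1 RPKM in starved mutants. The fed mutant summed to 34.1, 12.3 and 32.3 RPKM over all 10 features. Its replicate 2 was low in total while its INDY share was near that of the other libraries.

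**Figure D3:**
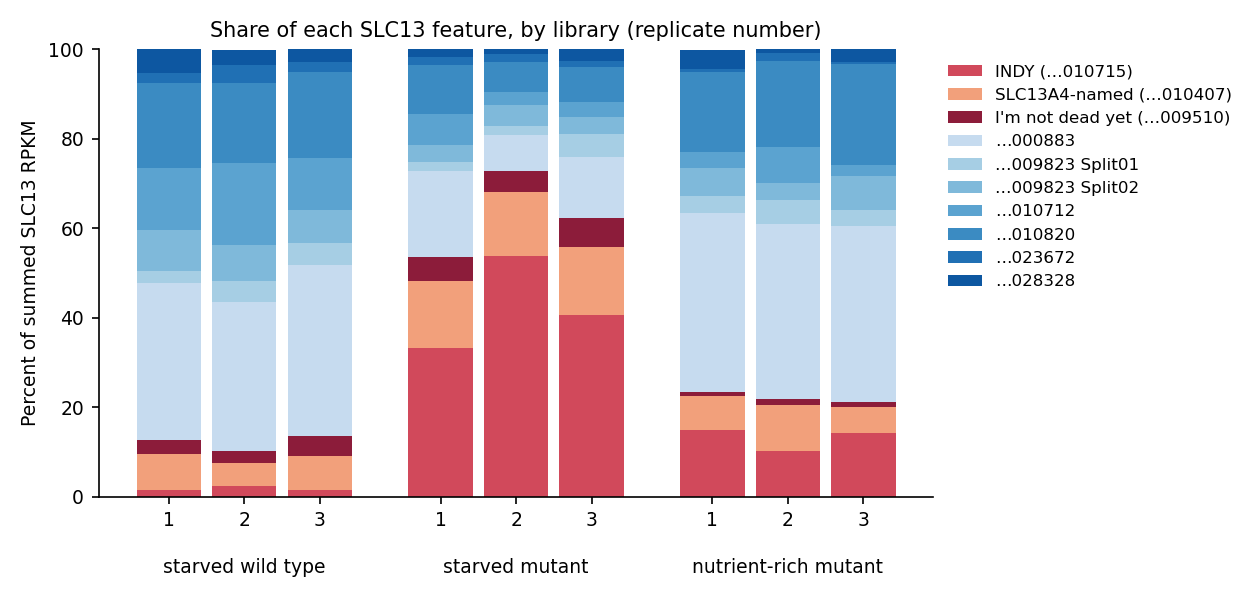
Share of each SLC13 feature in the summed SLC13 RPKM of a library, as stacked bars in percent, with 3 libraries per group by replicate number. The 3 genes described here are in red tones and the other 7 features in blue. INDY takes 1.44% to 2.39% in wild-type libraries, against 33.2% to 53.7% in starved mutants.

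The 6 other SLC13 genes were tested. They are what remained of the family after genes higher in the starved mutant had been picked. In the starved comparison their values are therefore no measure of the family as a whole. The other comparisons share starved mutant or starved wild-type libraries with it and are touched as well. Calls were made with the quasi-likelihood test of edgeR at a Benjamini-Hochberg adjusted p under 0.05 over all tested features and a change of at least 1.5-fold. Between the starved groups none of the 6 was called, with a median log2 change of -0.44 against 0.00 over all features, where 2.92% of features were called higher and 4.24% lower. At an unadjusted p under 0.05 there was 1 of the 6, and DESeq2 called 1 lower. The 6 log2 fold changes ran from -1.07 to 0.01, with Dapma7bEVm009823t1 taken by its most counted feature. Its other feature was at 0.66 (SE 0.42, edgeR adjusted p = 0.469). The lowest was Dapma7bEVm010712t1, named solute carrier family 13 member 5-like and so the nearest to INDY by name. It had 10.6, 14.2 and 8.66 CPM in starved wild-type replicates 1 to 3 and 7.04, 4.31 and 4.66 CPM in the starved mutant, and these groups did not overlap. Its log2 change was -1.07 (SE 0.29, edgeR adjusted p = 0.0608), just outside the threshold. It was called at -1.06 without fed mutant replicate 2 (edgeR adjusted p = 0.0256) and at -1.32 without starved mutant replicate 1. Dapma7bEVm000883t1 had a log2 change of -0.66 (SE 0.30, edgeR adjusted p = 0.265), which without fed mutant replicate 2 was called at -0.65 (edgeR adjusted p = 0.0231). Its starved groups did not overlap either, with 28.5 to 28.7 CPM in wild type and 13.6 to 21.3 CPM in the mutant. Those of Dapma7bEVm010820t1 were also apart, at 15.8 to 17.0 and 12.4 to 13.6 CPM. Of all tested features 21.1% lay apart in that direction, and the remaining SLC13 genes outside the set overlapped.

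Between the starved and the fed mutant 1 of the 6 genes rose and none fell, against 11.1% of features called higher and 12.0% lower. The gene that rose was Dapma7bEVm023672t1, named I'M NOT DEAD yet protein, with 3.66, 5.08 and 3.54 CPM in starved mutant replicates 1 to 3 and 1.09, 1.26 and 0.842 CPM in the fed mutant. Its log2 change was 1.94 (SE 0.37, edgeR adjusted p = 0.00522). In the starved wild type it had 3.07, 5.998 and 3.14 CPM, higher than in the fed mutant by 1.93 on the log2 scale (SE 0.37, edgeR adjusted p = 0.0107), while the starved groups overlapped, with a log2 change of 0.01 (SE 0.33, edgeR adjusted p = 0.993). This gene and Dapma7bEVm009510t1 both had their lowest group in the fed mutant.

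Between the starved wild type and the fed mutant 2 of the 6 genes were called higher and none lower, against 7.67% of features higher and 6.28% lower. Beside Dapma7bEVm023672t1 this was Dapma7bEVm010712t1, with 2.88, 3.52 and 2.11 CPM in the fed mutant and a log2 change of 1.98 (SE 0.31, edgeR adjusted p = 0.00428). Its order was thus fed mutant, starved mutant, starved wild type, the last of which was the lowest group for INDY. Within the mutant line it stayed outside the threshold, at 0.91 (SE 0.31, edgeR adjusted p = 0.058). The 3 remaining genes, Dapma7bEVm010820t1 and Dapma7bEVm009823t1 (both named solute carrier family 13 member 4) and Dapma7bEVm028328t1 (named Protein I'm not dead yet), were called in none of the comparisons by edgeR or DESeq2, nor was either feature of Dapma7bEVm009823t1. Dapma7bEVm028328t1 rests on 22 to 41 reads per group, and at that depth its log2 fold changes had standard errors of 0.66 to 0.70.

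**Figure D4:**
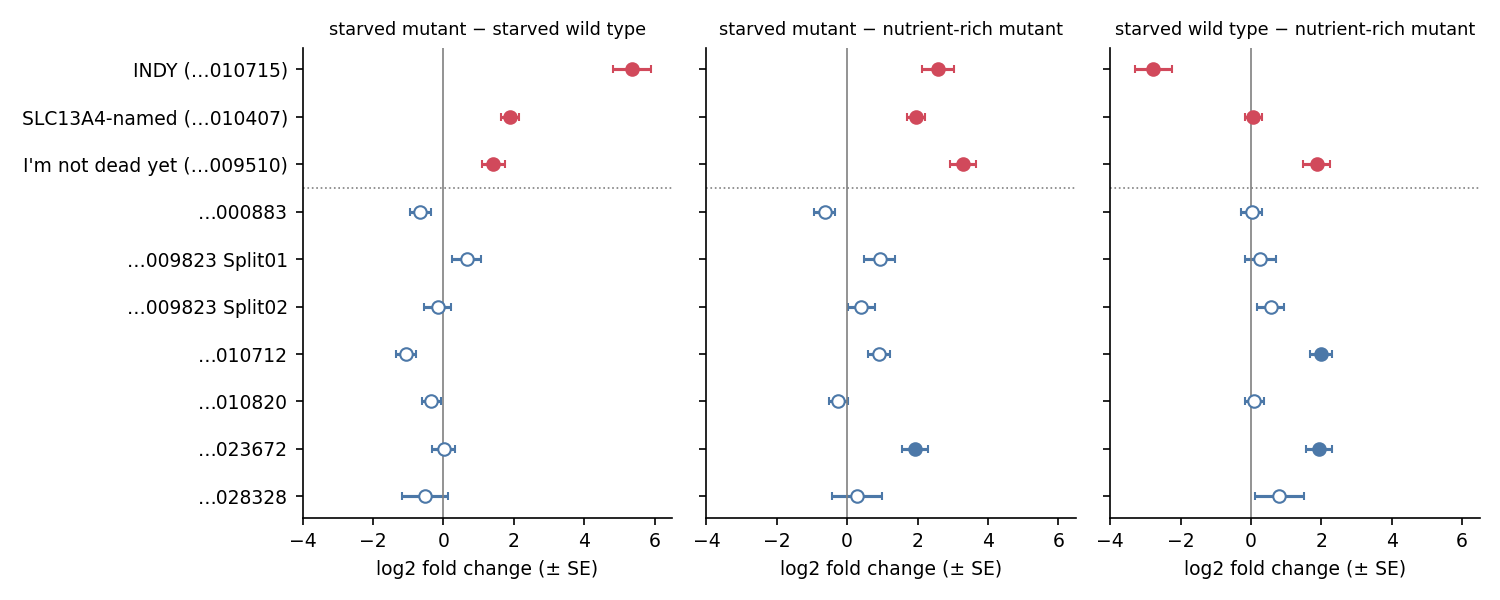
Log2 fold changes with standard errors of the 10 SLC13 features in the 3 comparisons, each from 3 libraries per group. Red points are the 3 genes described here, which were not tested. Blue points are the other features, filled where called by edgeR and open where not. In the left panel the red points lie at 5.36, 1.89 and 1.42 and no blue point is filled.

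What the 3 genes share beyond their selection was looked up in the annotation. All 3 carry the same gene ontology process terms, and citrate transport is annotated to 12 features in all, of which 10 are the SLC13 features. The feature names carry a code that the table does not explain. Dapma7bEVm009510t1 shares its code (sc02066) with 3 other SLC13 features, the genes Dapma7bEVm000883t1, Dapma7bEVm023672t1 and Dapma7bEVm028328t1, and 4 further SLC13 features share another (sc00115). INDY (sc02902) and Dapma7bEVm010407t1 (sc00512) are alone under theirs within the family. Of 27 other tested features with the code of INDY none was called by edgeR between the starved groups, and of 103 with the code of Dapma7bEVm009510t1 none was called higher and 3 lower. Of 667 with the code of Dapma7bEVm010407t1 17 were called higher, or 2.55%, and 32 lower. Over all tested features 2.92% were called higher and 4.24% lower, so the counts under the 3 codes are no result about these codes. How reads that fit several of these related genes were assigned, and whether strand was used, are not given in the sources used here. Counts of near-identical stretches could thus be divided between family members.

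Genes of other solute carrier families were counted in the same way. Of 41 tested 3 rose and 2 fell in the mutant between the starved groups, where 2.92% of all features were called higher and 4.24% lower, and their log2 fold changes ran from -2.40 to 2.71. From fed to starved mutants 6 rose and 7 fell, beside 11.1% and 12.0% of all features, within -2.39 and 3.21. The 3 SLC13 genes were picked for their high values, so these ranges are no measure of how far they stand out.

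Genes of citrate metabolism and energy sensing were also counted between the starved groups. Of 54 tested genes in 5 lists (mitochondrial citrate and dicarboxylate carriers, TCA cycle enzymes, citrate use and lipid synthesis, anaplerotic enzymes that refill the cycle, and energy sensing and life span) 1 rose and none fell by edgeR, with 3 at an unadjusted p under 0.05 and a median log2 change of -0.07. Over all features 2.92% were called higher and 4.24% lower, so among 54 genes these counts are no result about the lists. DESeq2 also called 1 of the 54 higher and 0 lower. The gene was pyruvate carboxylase (Dapma7bEVm003505t1), the enzyme that makes oxaloacetate from pyruvate, at 159 ± 2.46 CPM in wild type, 286 ± 62.2 in starved mutants and 341 ± 38.4 in the fed mutant (SD, n = 3). Its log2 fold change between the starved groups was 0.84 (SE 0.17, edgeR adjusted p = 0.0199), and the starved wild type was lower than the fed mutant, at -1.10 (SE 0.17, edgeR adjusted p = 0.00449). As for INDY the starved wild type was its lowest group, but its highest was the fed mutant, which did not differ from the starved mutant beyond the threshold (log2 change -0.26, SE 0.17, edgeR adjusted p = 0.32). The call between the starved groups was lost when starved wild-type replicate 1, 2 or 3 or starved mutant replicate 2 or 3 was left out, with edgeR adjusted p from 0.072 to 0.0937 and log2 fold changes from 0.68 to 0.85.

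From fed to starved mutants 5 of the 54 genes rose and 5 fell, shares below the 11.1% of all features called higher and the 12.0% called lower, so the counts are no result about these genes. The 5 that rose were all from the 16 tested genes of the list on energy sensing and life span, whose median log2 change was 0.01. Insulin receptor substrate 1 (Dapma7bEVm004503t1), the docking protein of the insulin receptor, was at 183 ± 11.3 CPM in the starved mutant and 58.3 ± 7.68 in the fed mutant (SD, n = 3), a log2 change of 1.65 (SE 0.14, edgeR adjusted p = 0.000129). The forkhead box protein O gene (Dapma7bEVm005483t1), the transcription factor that insulin signalling keeps out of the nucleus, rose by 1.45 (SE 0.16, edgeR adjusted p = 0.000369). The other 3 were insulin receptor genes, Dapma7bEVm009862t1 at 1.21, Dapma7bEVm009863t1 at 1.07 and Dapma7bEVm028401t1 at 0.81, with edgeR adjusted p from 0.000612 to 0.0196. The call of Dapma7bEVm028401t1 was lost when only the 6 libraries compared were fitted (edgeR adjusted p = 0.0852), and when starved mutant replicate 2 or 3 or fed mutant replicate 1 or 3 was left out, with edgeR adjusted p from 0.0603 to 0.0683 and log2 changes from 0.66 to 0.79.

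The 5 that fell in the starved mutant came from the carriers and enzymes. The alpha subunit of NAD-dependent isocitrate dehydrogenase (Dapma7bEVm004825t1), a control point of the TCA cycle, was at -1.23 (edgeR adjusted p = 0.000569). Hydroxymethylglutaryl-CoA synthase 1 (Dapma7bEVm000199t1) was at -0.89 and the mitochondrial oxoglutarate/malate carrier (Dapma7bEVm002820t1) at -0.76. Cytoplasmic aconitate hydratase (Dapma7bEVm001713t1), which converts citrate to isocitrate, was at -0.75, and NADP-dependent malic enzyme (Dapma7bEVm009648t1), a source of NADPH for lipid synthesis, at -0.59. These last 4 had edgeR adjusted p from 0.0029 to 0.0174. The call of malic enzyme was lost when starved mutant replicate 2 or 3 or fed mutant replicate 1 or 3 was left out, with edgeR adjusted p from 0.0509 to 0.0637 and log2 changes from -0.61 to -0.53. The 22 tested genes of the list of TCA cycle enzymes had a median log2 change of -0.31, against -0.07 over all features. In that list 2 were called lower, beside 12.0% of all features. They were isocitrate dehydrogenase and the aconitate hydratase, which the name pattern took in although it is named cytoplasmic. With scaling by library totals the split of these calls was 9 higher and 1 lower in place of 5 and 5, and isocitrate dehydrogenase was the 1 that stayed. That scaling moved the median of all features by 0.36 in this comparison, by 0.26 between the starved wild type and the fed mutant, and by 0.10 between the starved groups.

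Between the starved wild type and the fed mutant, where line and food cannot be told apart and the fed libraries are those of the last comparison, 4 of the 54 genes were called higher and 4 lower, shares near the 7.67% and 6.28% of all features. Those called higher were among the 5 that rose in the mutant. Insulin receptor substrate 1 was at 1.37, the forkhead box protein O gene at 1.24, and the receptor genes Dapma7bEVm009862t1 at 1.52 and Dapma7bEVm009863t1 at 1.14, with edgeR adjusted p from 0.000768 to 0.00185. Isocitrate dehydrogenase was lower at -1.16 (edgeR adjusted p = 0.00181), as were pyruvate carboxylase, hydroxymethylglutaryl-CoA synthase 1 at -0.73 (edgeR adjusted p = 0.0366) and Regulatory-associated protein of mTOR (Dapma7bEVm030402t1), a scaffold of the TOR kinase complex, at -0.67 (edgeR adjusted p = 0.0415). The synthase call was lost when any library but fed mutant replicate 2 was left out, with edgeR adjusted p from 0.0558 to 0.121. The call of Regulatory-associated protein of mTOR was lost without any 1 of the 6 starved libraries, with edgeR adjusted p from 0.0608 to 0.131, and without fed mutant replicate 2, where its log2 change of -0.45 fell short of the fold limit. Among the SLC13 genes Dapma7bEVm023672t1, Dapma7bEVm010712t1 and Dapma7bEVm009510t1 had both starved groups above the fed mutant with no overlap, the second of them at 0.91 within the mutant and thus not called there. For INDY the starved wild type lay below the fed mutant.

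**Figure D5:**
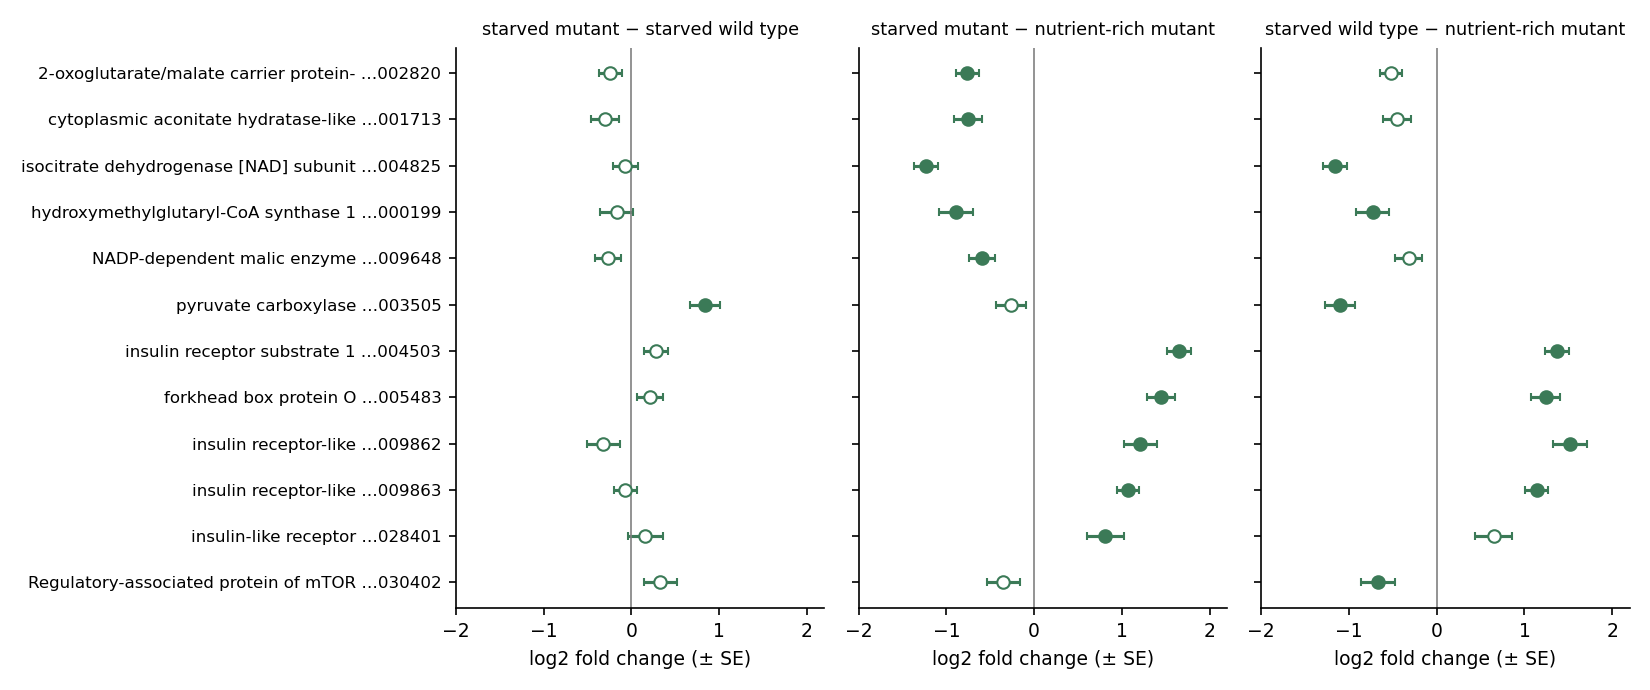
Log2 fold changes with standard errors of the 12 genes from the 5 lists that were called by edgeR in at least 1 comparison, with 3 libraries per group. Filled points were called and open points were not. In the left panel only pyruvate carboxylase (0.84) is filled, while insulin receptor substrate 1 stands at 1.65 in the middle panel and at 1.37 in the right panel.

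The genes most like each of the 3 in their log2 CPM over the 9 libraries were found by Pearson's r, as a description in which the points share their groups and libraries. For INDY these were a G1/S-specific cyclin-E-like gene (Dapma7bEVm005540t1, r = 0.973), Transformer-2 protein like protein beta (Dapma7bEVm004407t1, 0.97), Cuticular protein 49Ag (Dapma7bEVm002060t1, 0.97), Ionotropic receptor 76a (Dapma7bEVm018535t1, 0.968) and an uncharacterized protein (Dapma7bEVm023311t1, 0.961). For Dapma7bEVm010407t1 they were spondin-2 (Dapma7bEVm004267t1, 0.984), cytochrome P450 18a1 (Dapma7bEVm003686t1, 0.978), which in Drosophila inactivates the moulting hormone, a putative Cuticular protein (Dapma7bEVm022902t1, 0.974) and uncharacterized proteins (Dapma7bEVm023892t1 and Dapma7bEVm001852t1, both 0.978). For Dapma7bEVm009510t1 they were CD82 antigen-like (Dapma7bEVm005255t1, 0.988), Sulfotransferase family cytosolic 1B member (Dapma7bEVm008187t1, 0.987), Nuclear RNA export factor 1 (Dapma7bEVm003640t1, 0.986), putative Hemicentin-1 (Dapma7bEVm015139t1, 0.985) and Myelin regulatory factor (Dapma7bEVm003993t1, 0.985). Dapma7bEVm002060t1, Dapma7bEVm022902t1 and Dapma7bEVm023892t1 reached the required mean of 1 CPM over the 9 libraries only through the starved mutant. Their means there were 5.29, 3.08 and 8.88 CPM. In the starved wild type they were 0.0658, 0.0317 and 0.296 CPM, and in the fed mutant 0.717, 0.0 and 0.26 CPM. Their places among the nearest thus carry no weight. A high r does not mean a change of like size. Transformer-2 protein like protein beta had means of 50.6 CPM in the starved wild type and 68.0 CPM in the starved mutant. Nuclear RNA export factor 1 had group means of 64.3 to 82.0 CPM. No gene stood among the nearest 5 of more than 1 of the 3, and no gene of the lists on citrate and energy was among the nearest. The nearest were drawn from 10233 genes and the lists hold 54 tested genes, so neither absence carries weight. Within the set INDY had 0.84 with Dapma7bEVm010407t1 and 0.48 with Dapma7bEVm009510t1, and these other genes had 0.85 with each other. All 3 were picked as higher in the starved mutant, which by itself favours a high r among them. Outside the set Dapma7bEVm009510t1 had 0.79 with Dapma7bEVm023672t1. The less counted feature of Dapma7bEVm009823t1 had 0.58 with INDY, 0.72 with Dapma7bEVm010407t1 and 0.78 with Dapma7bEVm009510t1, but it rests on 4 to 22 reads per library. The remaining r with family features outside the set ran from -0.55 to 0.51. Among them were 0.07, 0.29 and 0.51, in the same order, for the most counted feature of Dapma7bEVm009823t1. The names rest in part on fed mutant replicate 2: without it 0 of the 5 named for INDY, 2 of those for Dapma7bEVm010407t1 and 0 of those for Dapma7bEVm009510t1 were still among the nearest 5.

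Levels in whole bodies hold the makeup of the tissues as well, and fewer cells of a type cannot be told apart from less RNA per cell. Markers of the tissues in which the Drosophila gene is known differed between the groups. The 161 digestive tract features (trypsins, carboxypeptidases, amylase and cellulases, of which 37 to 48 were at 0 in a library) summed to 15000 to 24700 CPM in wild type, 6180 to 12100 CPM in starved mutants and 16300 to 22500 CPM in the fed mutant. Starved mutant replicate 2, with the highest INDY level, had the lowest digestive sum, and replicate 1, with the lowest INDY level of its group, the highest. Among the features called higher in starved mutants than in wild type, replicate 1 was lowest in 90.8% and replicate 2 highest in 88.1%. This order of the 3 starved mutant libraries is thus not particular to INDY, and its relation to the digestive sum was not tested. The opposite order was not seen in the other groups. Starved wild-type replicate 2 was the highest in both INDY and the digestive sum, and replicate 3 the lowest in both. Fed mutant replicate 2 was the lowest of its group in both. The 19 vitellogenin features, of yolk made by the fat body, were at 0 in no library and summed to 36100 to 47000, 15800 to 17500 and 73200 to 96200 CPM in the same groups. Muscle markers (29 features, 6 to 8 at 0) summed to 10600 to 11800, 11300 to 12100 and 6440 to 8540 CPM. Germ line and ovary markers (23 features, 4 or 5 at 0) summed to 1390 to 1440, 2010 to 2050 and 1360 to 3690 CPM. The 353 cuticle features summed to 6630 to 6940, 6590 to 7040 and 6810 to 11200 CPM, with 219 to 237 of them at 0 in a starved wild-type library and 176 to 181 in a starved mutant library. The sums hide a shift among the cuticle genes: of 97 tested, 31 passed as higher and 12 as lower in starved mutants against wild type (median log2 change 0.89), and 39 higher and 16 lower from fed to starved mutants (median 1.37). The shares over all features are 2.92% and 4.24% in the former comparison, 11.1% and 12.0% in the latter. Of 96 tested digestive genes 2 were called higher and 15 lower between the starved groups, and 7 and 34 from fed to starved mutants. The part of these markers in the levels of the 3 genes was not tested.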

How the data were processed

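Per the labels and the study's methods, oligo(dT)-selected mRNA was sequenced as paired-end reads, and the authors mapped the reads in CLC Genomics Workbench to the wFleaBase genome and deposited raw counts (total gene reads) and RPKM for 47109 features. For the SLC13 features the deposited RPKM was not an exact rescaling of the counts: the length implied by both differed between libraries by a factor of 1.08 to 2.04. The deposited tables of the authors' comparisons (fold changes and FDR p-values) were not used. All per-sample columns were used. Counts were analysed in R 4.3.3 with edgeR 4.0.16 (filterByExpr with a minimum count of 10 over 3 groups, leaving 18675 features, TMM scaling, and 1 quasi-likelihood fit of all 9 libraries). Benjamini-Hochberg adjustment ran over all tested features, and a call needed an adjusted p under 0.05 and a fold of at least 1.5. RPKM, which had no TMM scaling, served to compare genes, for the sums and shares of the family, and as an alternative for the fold changes of the 3 genes. The procedure was tested on simulated counts. DESeq2 1.42.0 was the other tool. Log2 CPM for likeness had a prior count of 2. The members and lists were chosen with earlier results of these data known. Lists were patterns on gene names, and a gene with several features is shown by its most counted one. Named were the 3 genes, the other SLC13 genes, list genes called in any comparison (at most 10 per list and comparison), the 5 named genes of at least 1 CPM most like each member, and DNMT3.1. Alternatives were other scalings, no filter, DESeq2, the 6 libraries compared, a replicate block, no limit on fold, each library left out and RPKM in place of CPM, and, added after the data were seen, CPM in place of RPKM for family shares. Per the study's methods the daphnids were cultured one by one and the sampling of each treatment was done in triplicate, so a library is a pool of separately kept animals of 1 line.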

Additional observations from a re-analysis of the deposited data

How the results depend on the processing

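The log2 fold changes of the 3 genes kept their direction in every alternative, with the exception of Dapma7bEVm010407t1 between the starved wild type and the nutrient-rich mutant (0.07), which ran from -0.08 to 0.27 when libraries were left out. Between the starved and the nutrient-rich mutant Dapma7bEVm010407t1 moved from 1.96 to 2.30 with library totals and to 2.35 with RPKM, and Dapma7bEVm009510t1 from 3.30 to 3.79 with RPKM. The likeness names are the least stable: with a prior count of 0.5, 3 of 5 stayed for Dapma7bEVm010407t1 and 3 of 5 for Dapma7bEVm009510t1, and without nutrient-rich mutant replicate 2 it was 0 for INDY, 2 for Dapma7bEVm010407t1 and 0 for Dapma7bEVm009510t1.

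Of the 6 other SLC13 genes, those called lower between the starved groups numbered 0, but 1 with DESeq2, 2 with only the 6 libraries compared, and 0 to 2 when libraries were left out (2 without nutrient-rich mutant replicate 2, 1 without starved mutant replicate 1). Between the starved and the nutrient-rich mutant 1 was called higher, but 2 with library totals and 1 to 2 when libraries were left out, and 0 to 1 lower. The lists gave 1 higher between the starved groups and 0 to 1 when libraries were left out. Between the starved and the nutrient-rich mutant they gave 5 higher and 5 lower. This became 9 and 1 with library totals, and the lower count was 8 with DESeq2, 8 with no limit on fold, and 4 to 10 when libraries were left out (10 without nutrient-rich mutant replicate 2). Between the starved wild type and the nutrient-rich mutant the 4 lower became 2 with library totals, 2 with no filter, 2 with only the 6 libraries compared, 8 with no limit on fold, and 2 to 9 when libraries were left out (9 without nutrient-rich mutant replicate 2). The cause was not tested for any of these.

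Libraries with the same replicate number deviated together with r from -0.104 to 0.177, so the numbers were not taken to pair the libraries. With the replicate block the lists gave 0 higher between the starved groups, where pyruvate carboxylase had an edgeR adjusted p of 0.055, and 2 lower between the starved wild type and the nutrient-rich mutant, since the calls of hydroxymethylglutaryl-CoA synthase 1 (edgeR adjusted p = 0.0729) and Regulatory-associated protein of mTOR (0.0607) were lost. Both were also lost with library totals, no filter and only the 6 libraries compared. Over all features the starved comparison had 1337 calls, 1036 with the replicate block, 2068 with DESeq2 and 2678 without nutrient-rich mutant replicate 2. Depth limits Dapma7bEVm009510t1 most, which rests on 12 reads in the nutrient-rich mutant.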
